A study of Mus musculus with 3 samples.

Results

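The expression arrays of this study carry, beside probes for named transcripts, 16181 probes whose name in the scanner files is a stretch of the mouse genome and not a transcript accession. They were chosen by that name alone: every non-control probe whose systematic name gives a chromosome, a start, an end and the suffix F or R, in coordinates of the mouse build mm9. They make up 29.1% of the 55681 non-control probes on the array, and the other 39500 probes served for comparison. The 16181 probes fall in 3540 intervals, of which 1067 carry probes of both suffixes and 2473 of 1 suffix only, which gives 4607 intervals counted once per suffix. The suffixes are called orientation F and orientation R here, because the files do not say which genomic strand each letter stands for.

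Intervals of this kind are put on arrays to read long intergenic noncoding RNAs, transcripts from between protein-coding genes that are processed much like messenger RNA but encode no protein. Some of them act at chromatin or on neighbouring genes, and for most no function is known. In the developing retina several long noncoding RNAs are transcribed beside or across from transcription factor genes. No mm9 annotation was used here, so which intervals lie near a gene, in an exon or in an intron was not examined, and neither was whether the RNA they read is noncoding.

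RNA from retinas of mice at postnatal day 12 was labelled with the dye Cy3 and hybridised to 3 arrays, 1 each for wild-type mice, Otx2 KI mice and Crx KO mice, in order to compare the profiles of these genotypes. Otx2 and Crx, related transcription factors of the homeodomain family, act in the precursors of photoreceptors. Which locus the knock-in uses, which exons are altered, the strain, the sex and the number of mice behind each RNA are not in the labels. With 1 array per genotype no test across samples was possible, no p-value is given, and every difference has no replicate check. All 3 arrays were on 1 slide and read in 1 scan, so the place of an array on that slide and its genotype cannot be told apart. Each error below is that of the scanner software's own model for the log2 difference of a probe, which covers the measurement of these RNAs and not the spread between mice.

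The marker lists describe the 3 RNAs. The 6 rod markers had a summed scaled signal of 483996 on the wild-type array, 112270 on the Otx2 KI array and 114718 on the Crx KO array, and 5 and 6 of them were lower by 2-fold or more. The 6 pigment epithelium markers summed to 10663, 4992 and 3598, with 2 and 4 of them lower. The 4 cone markers that could be measured included 3 that were lower on each mutant array. The remaining cone marker, Opn1sw, read 207 in wild-type. It read 4.99 in Otx2 KI and 5.88 in Crx KO, not well above background on either. The 5 lens markers summed to 512, 901 and 311, with 2 of 4 measured higher in Otx2 KI than in wild-type. In Crx KO against wild-type 0 of 3 lens markers passed 2-fold, and 2 of 3 were lower in Crx KO than in Otx2 KI. All bipolar, amacrine, horizontal, ganglion, Muller glia, microglia, red blood cell and vessel markers that could be measured were within 2-fold. No marker list contains an interval, and the part of these marker differences in the values below was not tested. Fewer cells of a type and less RNA per cell cannot be told apart in these samples. Xist, made from an inactive X chromosome, and the Y-linked gene Ddx3y were well above background on every array. The Crx probe read 9790 on the wild-type array, 1062 on the Otx2 KI array and 7177 on the Crx KO array, and the Otx2 probe 40886, 63860 and 62981. The labels do not locate the altered parts of the alleles, so these probes check nothing, and Otx2 KI and Crx KO below stand for the arrays so labelled.

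Close to 50% of the interval probes gave a signal. A probe counts as detected where the scanner software called it well above background, which held for 8190 interval probes (50.6%) on the wild-type array, 7471 (46.2%) on the Otx2 KI array and 8397 (51.9%) on the Crx KO array. Among all other probes the shares were 72.1%, 69.5% and 72.4%. On all 3 arrays 7176 interval probes (44.3%) were detected against 68.5% of the other probes, and 7224 (44.6%) were detected on none. The array labelled Otx2 KI detected the fewest probes of both kinds. The 99th percentile of its negative control spots was also the highest. It was 14.0 units of processed signal, against 4.0 on the wild-type and 5.12 on the Crx KO array. With 308 such spots this percentile rests on few of them, and the part it had in the lower detection was not tested.

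**Figure D1:**
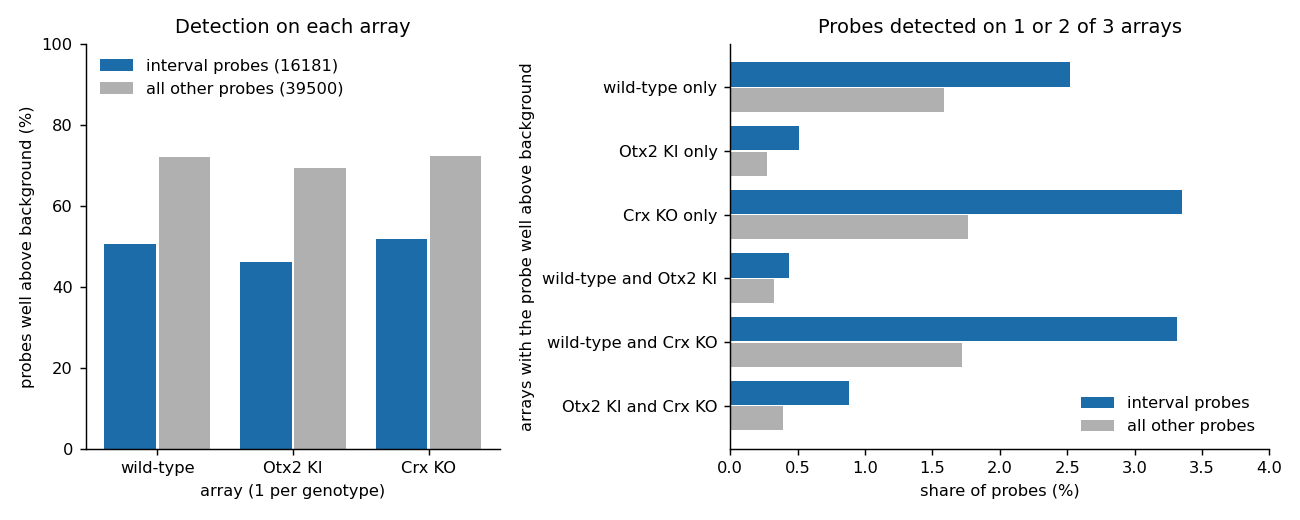
Left, share of probes well above background (percent) on each of the 3 arrays for the 16181 interval probes and the 39500 other probes. Right, share of probes (percent) detected on 1 or 2 of the 3 arrays, by the arrays on which they were detected; interval probes detected on the Crx KO array only make up 3.35% against 1.77% of the other probes.

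Every pattern of detection on some arrays only was found. On the Crx KO array only, 542 interval probes were detected, 408 on the wild-type array only and 82 on the Otx2 KI array only. The wild-type and Crx KO arrays without the Otx2 KI array shared 536, the pair of mutant arrays 143, and the wild-type and Otx2 KI arrays 70. Each of the 6 patterns held a larger share of the interval probes than of the other probes, as the bars for probes detected on 1 or 2 arrays show. Interval probes that were detected had dimmer signals, with a median scaled signal of 58.4 in wild-type, against 66.4 in Otx2 KI and 57.3 in Crx KO, while the other probes had 393, 437 and 383. Scaled signal is the processed signal divided by the array's 75th percentile and then multiplied by that percentile of the wild-type array. Different probes share no scale of RNA amount, so this describes brightness and not abundance. None of the interval probes was saturated.

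Most intervals were seen by at least 1 probe, and a minority by all of them. An oriented interval carried 1 to 10 probes with a median of 3, and 690 carried a single probe. Of the 4607 oriented intervals, 3191 (69.3%) had a probe detected on all 3 arrays, 1201 had every probe detected and 1416 had none. Of the 3917 with 2 or more probes, 852 had every probe detected, 1075 none and 1990 some. Interval length ran from 62 bp to 7.13 Mb with a median of 7.32 kb, and detection on all 3 arrays followed no steady trend with it. It was 40.0% in intervals up to 1 kb, 52.0% from 1 to 5 kb, 45.2% from 5 to 20 kb, 43.1% from 20 to 100 kb and 45.3% in longer ones. Of the 3540 intervals, 2101 (59.4%) overlap another interval of the array, so neighbouring members can read the same RNA and are not independent.

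The orientations of an interval were often not detected together. Orientation R probes were detected on all 3 arrays more often (46.4% of 8010) than orientation F probes (42.3% of 8171). Among the 1067 intervals with both orientations, 232 had at least 50% of the probes of each orientation detected, 189 only those of F, 289 only those of R, and 357 had neither. With 1 detected probe as the criterion, both orientations were detected in 633, F only in 165, R only in 185 and neither in 84. In those 633 intervals the mean difference of an orientation passed 2-fold in at least 1 orientation 28 times for Otx2 KI against wild-type, 30 times for Crx KO against wild-type and 11 times for Otx2 KI against Crx KO. In none of these did both orientations of the same interval pass 2-fold, the same way or opposite ways. Intervals with unlike coordinates are not part of that count. Within chr8:67542714-67561694, 2 intervals of unlike orientation were both lower past 2-fold. Their means, from 3 probes in all, were -2.32 and -1.82 in Otx2 KI and -2.28 and -1.73 in Crx KO. The latter value of each pair is from 2 of the 10 probes of the orientation F interval, and the former from the remaining probe. Over the 3 orientation F probes measured in Otx2 KI against wild-type the mean was -1.59, with the smallest difference at -1.12. Nearby intervals of both orientations also passed together in Crx KO on chromosomes 3 and 17 and elsewhere on chromosome 8.

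Interval probes cover all 19 autosomes and the X chromosome, and none names the Y chromosome. Chromosome 1 holds the most (1199 probes, 352 oriented intervals) and chromosome 19 the fewest (322 probes, 99 oriented intervals). The share detected on all 3 arrays ran from 34.4% on chromosome 9 and 37.2% on chromosome 10 to 50.3% on chromosome 19 and 54.0% on chromosome 5. Probes of named genes spanned a narrower range, from 66.5% on chromosome 7 to 79.1% on chromosome 18, and no chromosome's interval probes reached the lowest of these. On the X chromosome the share was 44.0% (254 of 577).

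**Figure D2:**
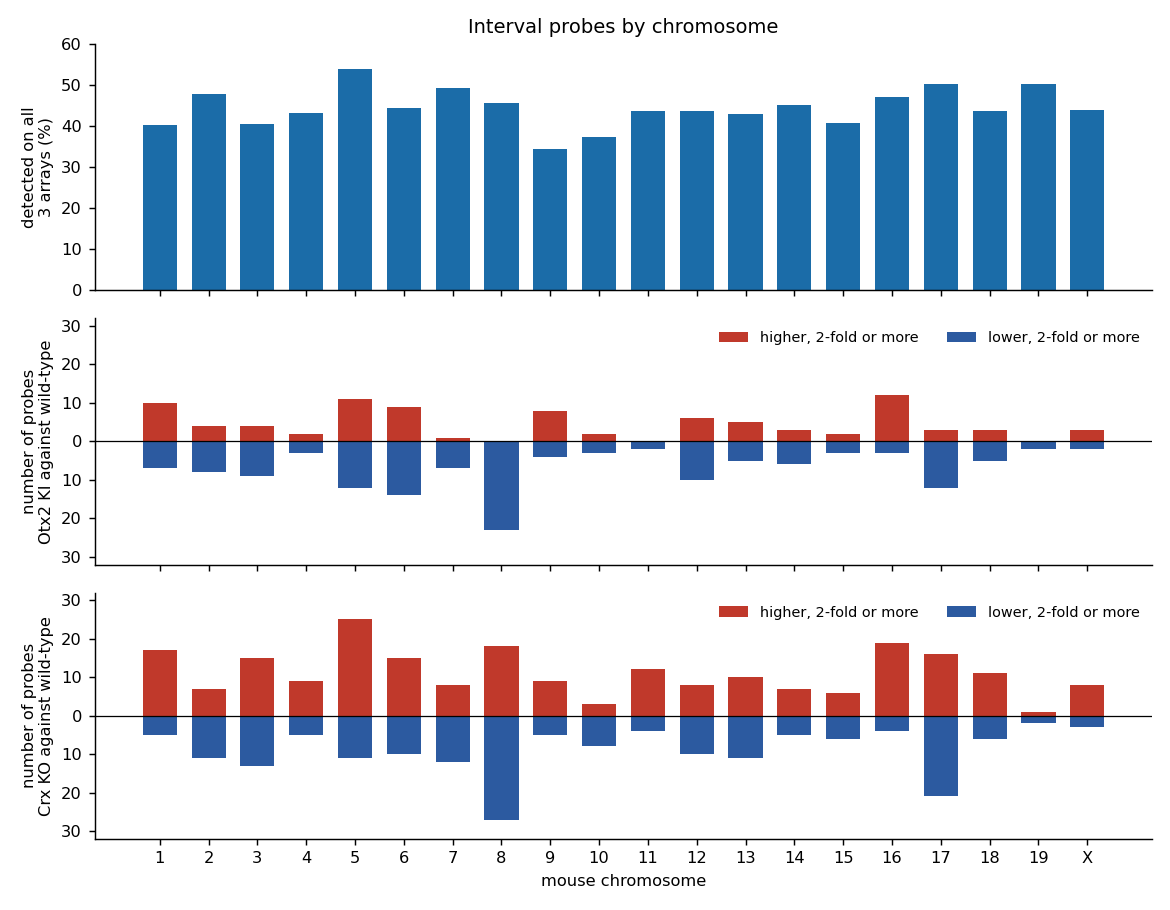
Interval probes on each mouse chromosome: top, the share detected on all 3 arrays (percent); middle and bottom, the number of probes higher (red, upward) or lower (blue, downward) by 2-fold or more in Otx2 KI against wild-type and in Crx KO against wild-type. On chromosome 8, 23 probes were lower and 0 higher in Otx2 KI, and 27 were lower and 18 higher in Crx KO.

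The probes that passed 2-fold were spread over all chromosomes, with some unevenness. In Crx KO against wild-type, chromosome 8 had the largest share of its measured probes past 2-fold, 9.11% (45 probes in 28 oriented intervals). By share, chromosome 16 followed with 7.90% (23 probes) and chromosome 17 with 7.77% (37 probes), and chromosome 19 came last with 1.73% (3 probes). On chromosome 16, 19 of 23 such probes were higher, on chromosome 1 17 of 22, on chromosome 11 12 of 16, on the X chromosome 8 of 11 and on chromosome 5 25 of 36, while on chromosome 10 8 of 11 were lower. For Otx2 KI the share ran from 0.621% on chromosome 11 to 5.49% on chromosome 16. On chromosome 8 all 23 such probes, in 14 oriented intervals, were lower. An interval can add several probes to these counts, so they do not count independent loci. Over all chromosomes 5.23% of the measured interval probes passed in Crx KO and 3.15% in Otx2 KI, beside 5.33% and 3.62% of all probes. The chromosomes above were picked for their counts, and calls of the other probes were not counted by chromosome. Whether the unevenness is particular to interval probes was therefore not tested.

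On the array labelled Otx2 KI 88 interval probes were higher and 140 lower than in wild-type by 2-fold or more, and the lower ones included the largest differences, up to 28.8-fold. These 228 probes are 3.15% of the 7246 interval probes detected on both arrays, beside 3.62% of all probes and 3.75% of the other probes. Of the interval probes 1.21% were higher and 1.93% lower, beside 1.31% and 2.31% of all probes and 1.33% and 2.41% of the others, so interval probes passed 2-fold about as often as the rest of the array. The median log2 difference was -0.01 over interval probes and 0.03 over the others, and 90.1% of the interval probes were within 1.5-fold. The median scanner error was 0.22. The probes just inside and just outside the threshold stood at 2.005-fold and 1.999-fold. Of the remaining members, 225 were detected on the Otx2 KI array only, 944 on the wild-type array only and 7766 on neither.

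On the array labelled Crx KO more interval probes were higher than lower. The counts were 224 higher and 179 lower than wild-type by 2-fold or more, 5.23% of 7712 measured, beside 5.33% of all probes and 5.36% of the other probes. The direction was divided differently from the rest of the array: 2.90% of the interval probes were higher and 2.32% lower, against 2.09% and 3.27% of the other probes, with 2.27% and 3.07% over all probes. Interval probes were also dimmer than the others, and the part of brightness in this split was not tested. The median log2 difference was 0.02 over interval probes and -0.01 over the others. The probes nearest the threshold stood at 2.003-fold and 1.996-fold. A further 685 members were detected on the Crx KO array only, 478 on the wild-type array only and 7306 on neither.

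The mutant arrays were closer to each other than either was to wild-type in the number of interval probes past 2-fold. In Otx2 KI against Crx KO, 42 were higher and 85 lower, 1.74% of 7319 measured, beside 1.46% of all probes and 1.38% of the others. By direction, 0.574% were higher and 1.16% lower, beside 0.666% and 0.791% of all probes and 0.691% of the others either way. Among probes detected on all 3 arrays, though, interval probes had the smaller share past 2-fold in every bin of brightness given below. The part of their dimmer signals in the larger share over all bins was not tested. The members' median log2 difference was -0.04 and that of the others 0.04, and with quantile normalization the split became 54 higher and 71 lower (43.2% higher in place of 33.1%), or 52 and 67 (43.7%) with the arrays centred on the interval probes. Detected on 1 array only were 152 on Otx2 KI and 1078 on Crx KO, with 7632 on neither. All of these comparisons reuse the same 3 arrays, so the counts are not independent of each other.

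**Figure D3:**
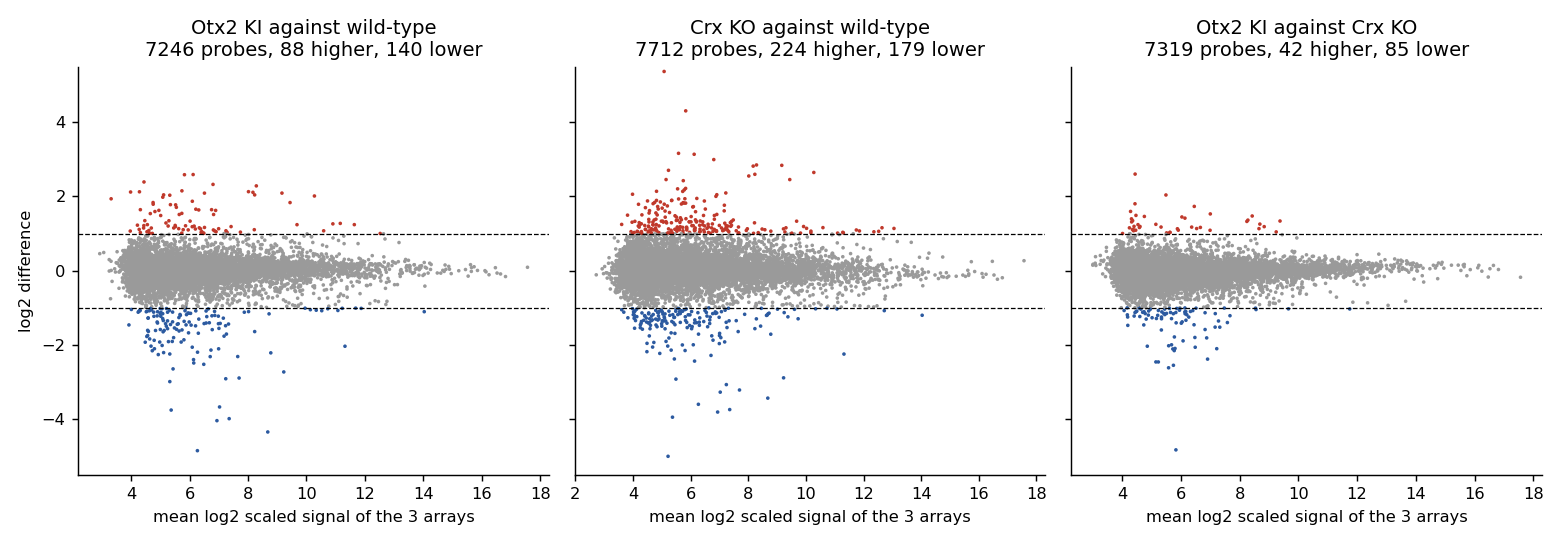
Log2 difference of each interval probe detected on both arrays of a comparison against its mean log2 scaled signal over the 3 arrays; dashed lines mark 2-fold, red points are higher and blue points lower. Most points lie between the lines, and most of those outside have a mean log2 scaled signal below 8.

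How often a probe passed 2-fold depended on its signal, for interval probes as for others. Among probes compared between Otx2 KI and wild-type, 4.06% of interval probes with a mean scaled signal from 32 to 128 passed, against 4.52% of the other probes of that brightness. From 128 to 512 the shares were 1.73% and 4.26%, and from 512 to 2048 they were 1.87% and 3.31%. In Crx KO against wild-type the same 3 bins gave 6.29% against 7.2%, 3.90% against 6.22%, and 3.43% against 4.30%. For Otx2 KI against Crx KO they gave 2.23% against 2.79%, 1.09% against 1.31%, and 0.467% against 0.649%. Interval probes thus had the smaller share in each of these bins. In the brightest bin, with 296 interval probes, the shares were 3.04% and 3.04% for Otx2 KI and 4.39% and 3.54% for Crx KO. Between the mutant arrays they were 0.338% and 0.392% there, and 2.22% and 2.56% in the dimmest bin, from 8 to 32.

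**Figure D4:**
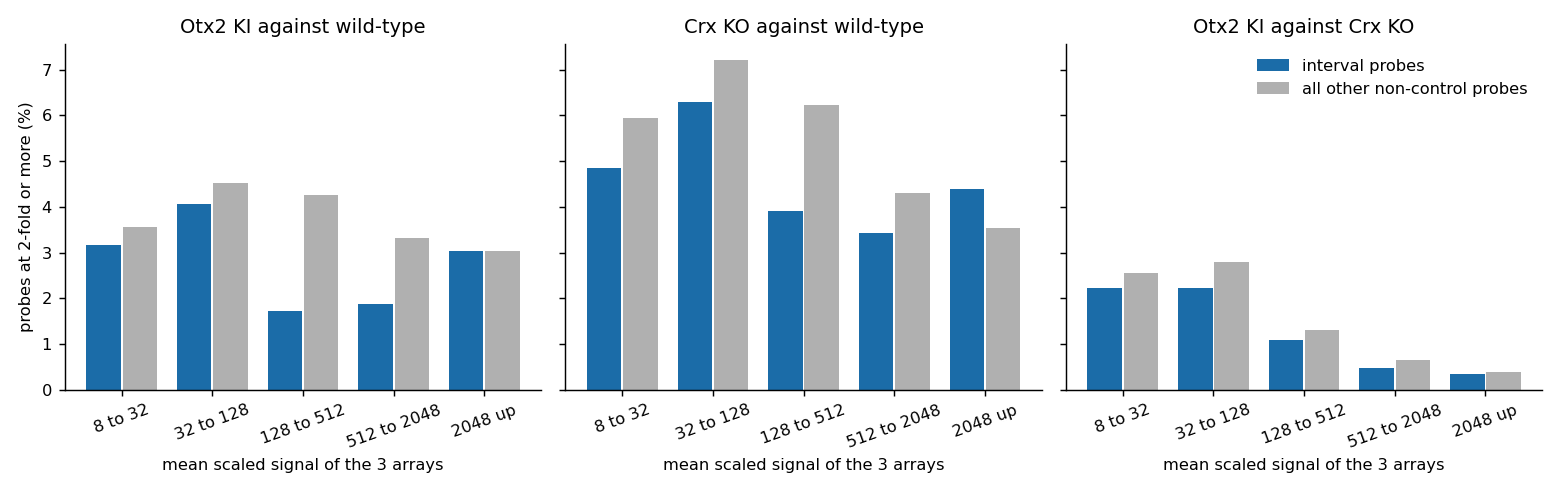
Share of probes (percent) that differ by 2-fold or more, by mean scaled signal over the 3 arrays, for interval probes and all other probes detected on all 3 arrays, in each comparison. In Otx2 KI against wild-type 1.73% of interval probes and 4.26% of the others passed in the bin from 128 to 512.

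Many probes that passed 2-fold were the only such probe of their interval and orientation. Of 194 called probes in intervals with 2 or more measured probes in Otx2 KI against wild-type, 66 had every other probe of the interval called the same way, 48 had some and 80 had none. For Crx KO the counts were 103, 101 and 138 of 342, and 3 of those probes had a partner called the opposite way. For Otx2 KI against Crx KO they were 15, 30 and 53 of 98. Intervals whose measured probes all passed together are described first below, since they rest on several probe sequences, which repeat the measurement of 1 RNA preparation and are not replicates of a genotype.

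Comparing Otx2 KI with wild-type, every measured probe passed 2-fold in 10 intervals that were higher and 14 that were lower, of 1874 with 2 or more measured probes. In Crx KO against wild-type this held for 22 higher and 14 lower of 2004, and in Otx2 KI against Crx KO for 1 higher and 3 lower of 1890. Under the same rule 2.28%, 2.93% and 0.384% of the other accessions with 2 or more probes passed. With normexp background correction of the median spot signals, which replaced the processed signal and added an offset of 50, every probe still passed in 4 and 2 of the Otx2 KI intervals, 5 and 2 of the Crx KO intervals, and 0 and 1 of the Otx2 KI against Crx KO intervals. No measured probe of these intervals took the opposite sign with it. That is a weak check, because an offset shrinks a difference past 2-fold and does not turn it.

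A gain shared by 3 neighbouring intervals lay on chromosome 6. In chr6:31007184-31007725, orientation R, the 3 probes read 18.5, 92.2 and 95.2 in scaled signal on the wild-type array, 112, 398 and 464 on the Otx2 KI array and 163, 650 and 687 on the Crx KO array. All 3 were lowest in wild-type and highest in Crx KO. The interval's mean difference was 2.33 on the log2 scale in Otx2 KI (5.03-fold) and 2.94 in Crx KO (7.65-fold), with a scanner error per probe of 0.21 to 0.27 in both.

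A second interval of that stretch, chr6:31078802-31079644, orientation R, had the brighter probes, at 183, 258 and 422 in wild-type, against 781, 920 and 1703 in Otx2 KI and 1312, 1413 and 2643 in Crx KO. Its mean log2 difference was 1.98 in Otx2 KI (3.95-fold) and 2.65 in Crx KO (6.27-fold). In the third, chr6:31115515-31168433, orientation R, the 3 probes read 32.7, 87.8 and 103 in wild-type, against 164, 384 and 423 in Otx2 KI and 260, 515 and 621 in Crx KO. This is a mean of 2.17 (4.49-fold) and 2.71 (6.56-fold). The 9 probes of the 3 intervals together span 161 kb, and each lay in the order wild-type, Otx2 KI, Crx KO. Otx2 KI against Crx KO gave mean differences of -0.61, -0.67 and -0.55, all short of 2-fold. With normexp the means were 1.44, 1.70 and 1.41 in Otx2 KI and 1.92, 2.30 and 1.84 in Crx KO.

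Other intervals were higher on both mutant arrays from a dim start. In chr16:59556175-59603176, orientation R, the 3 probes read 38.3, 42.8 and 55.2 in wild-type, against 163, 133 and 172 in Otx2 KI and 121, 88.4 and 132 in Crx KO, a mean log2 difference of 1.79 and 1.32. Here the Otx2 KI array was the highest for every probe. The 2 measured probes of chr12:56607657-56613582, orientation R, read 14.2 and 18.7 in wild-type, against 56.0 and 112 in Otx2 KI and 49.1 and 86.9 in Crx KO. The interval's mean log2 difference over them was 2.28 in Otx2 KI and 2.01 in Crx KO. Its other 3 probes were not well above background on the wild-type array, and 1 of them on no array. In chr5:77188300-77205150, orientation F, the 3 measured probes had a mean difference of 1.64 in Otx2 KI and 1.84 in Crx KO, and in chr5:77084398-77086144, orientation R, the 2 probes had 1.69 and 1.56. With normexp the means of these 4 intervals ran from 0.59 to 0.97 in Otx2 KI and from 0.69 to 0.85 in Crx KO, all short of 2-fold.

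Overlapping intervals on chromosome 1 were higher at very different brightness. In chr1:52507332-52514490, orientation R, 3 probes read 1146, 1359 and 1903 in wild-type, against 2749, 3289 and 4499 in Otx2 KI and 2240, 2671 and 3794 in Crx KO. The difference was 1.24 to 1.27 in Otx2 KI with a scanner error of 0.20, and a mean of 0.98 in Crx KO, just short of 2-fold. Another probe of this interval was not well above background on any array. The 5 probes of chr1:52507374-52514124, orientation R, which lies within it, were dimmer, from 21.2 to 39.2 in wild-type, against 57.2 to 94.4 in Otx2 KI and 66.9 to 93.4 in Crx KO, with a mean of 1.48 in both. Each measured probe of both intervals was lowest in wild-type. With normexp the mean of the brighter interval was 1.22 in Otx2 KI, and that of the dimmer one 0.69 on both arrays.

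On the lower side 1 interval stood out on chromosome 18. In chr18:77968421-77972209, orientation R, the 3 probes read 602, 850 and 2190 in wild-type, against 79.9, 114 and 330 in Otx2 KI and 71.7, 91.5 and 296 in Crx KO. All 3 were far lower on both mutant arrays, whose values lay close together. The mean log2 difference was -2.84 in Otx2 KI (7.18-fold lower, -2.31 with normexp) and -3.06 in Crx KO (8.32-fold lower, -2.45 with normexp), with a scanner error of 0.20 to 0.21.

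A like pattern at a dimmer level was read in chr2:129416848-129417413, orientation R. Its 3 probes had 130, 262 and 327 in wild-type, against 34.2, 59.4 and 75.9 in Otx2 KI and 32.4, 77.4 and 83.7 in Crx KO. The mean differences were -2.06 and -1.91, or -1.32 and -1.26 with normexp. Rod marker signals were lower on the same arrays, and whether these intervals are read in rods was not tested.

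The interval with the most measured probes among those in which every probe was lower on both mutant arrays was chr8:60132300-60146830, orientation F, with 5. They read 82.8 to 307 in wild-type, against 28.0 to 113 in Otx2 KI and 23.6 to 120 in Crx KO. The range of differences was narrow, from -1.69 to -1.44 in Otx2 KI and from -1.87 to -1.35 in Crx KO, while the normexp means were -0.94 and -0.95. Nested intervals on chromosome 12, chr12:76744947-76778372 and chr12:76769763-76770169, both orientation R, had means of -1.53 and -1.49 in Otx2 KI and -1.51 and -1.25 in Crx KO. The 3 probes of the inner interval read 67.1, 174 and 189 in wild-type, against 21.4, 65.6 and 71.4 in Otx2 KI and 27.7, 74.7 and 79.5 in Crx KO. In chr8:13200727-13207714, orientation F, the 2 measured probes read 65.2 and 138 in wild-type, against 21.7 and 22.1 in Otx2 KI and 23.1 and 26.6 in Crx KO. Its remaining probe read 32.4 in wild-type and was not well above background on either mutant array. The group also held chr17:84355587-84356863, orientation F, with means of -1.63 and -1.48. With normexp the mean of chr8:13200727-13207714 was -1.01 in Otx2 KI and -0.96 in Crx KO, and those of the chromosome 12 and 17 intervals lay between -0.82 and -0.56.

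**Figure D5:**
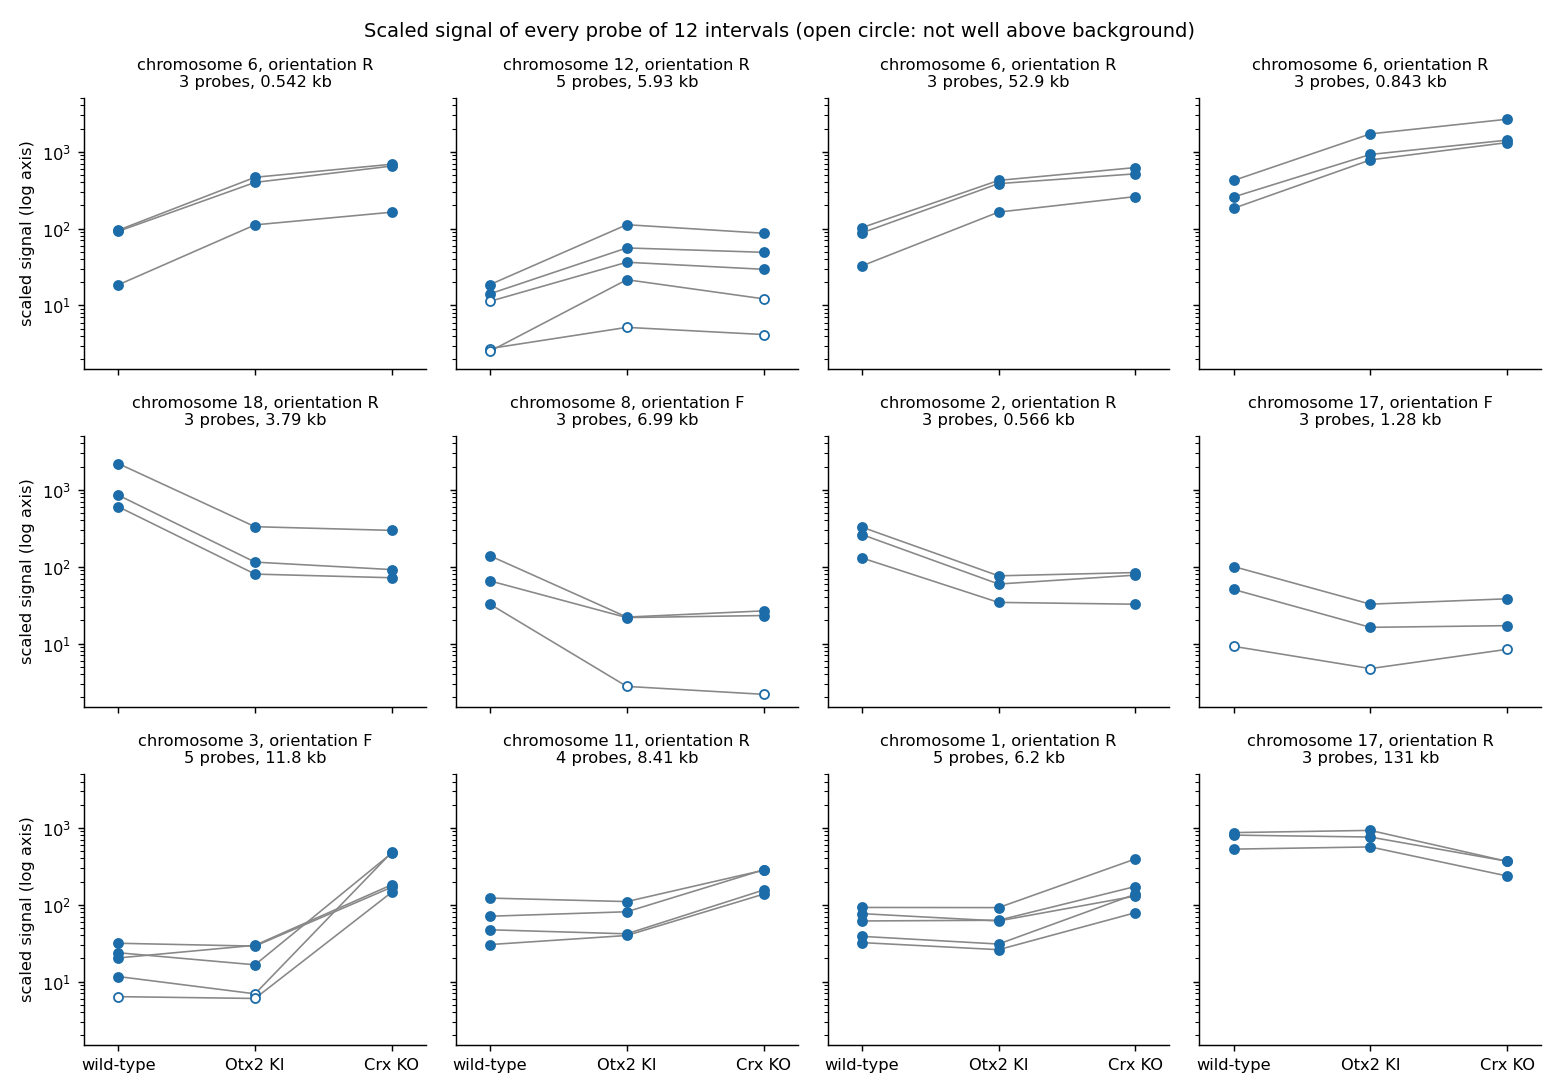
Scaled signal (log axis) of every probe of 12 intervals on each array, 1 line per probe: the 4 with the largest mean increase and the 4 with the largest mean decrease in Otx2 KI against wild-type among those whose measured probes all passed 2-fold, and the 4 that did so in Otx2 KI against Crx KO. In the chromosome 18 interval the 3 probes lie between 602 and 2190 in wild-type and between 71.7 and 330 on the mutant arrays, and in the chromosome 3 interval all 5 probes are highest in Crx KO.

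Several of the largest decreases rested on a single probe of an interval. In chr2:173105462-173126187, orientation R, 1 of 4 probes read 543 in wild-type, against 18.8 in Otx2 KI and 44.8 in Crx KO, a log2 difference of -4.85 with an error of 0.30 and of -3.60 with an error of 0.22. In chr1:63264155-63345773, orientation F, 1 of 5 probes read 2470, 121 and 229, which is -4.35 and -3.43. Its only other measured probe read 29.5, 21.4 and 24.5, a difference of -0.47 and -0.27. The probes of that interval therefore disagree, and a large drop on 1 of them does not describe the interval.

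The same held for chr14:79724027-79729152, orientation F, where 1 of 3 probes read 751, 45.6 and 53.6 (-4.04 and -3.81), and for chr2:31001736-31006911, orientation F, where 1 of 8 probes read 977, 61.6 and 73.0 (-3.99 and -3.74). In the latter, the other 2 measured probes were within 1.5-fold of wild-type on both mutant arrays. On chromosome 19, chr19:5771425-5848475, orientation F, held 1 probe at 649, 50.9 and 67.1 (-3.67 and -3.27), and its 7 other measured probes differed by -0.23 to 0.46. On the X chromosome, 1 of 5 probes of chrX:165792277-165807952, orientation R, read 379, 11.5 and 11.8. That is -5.00 in Crx KO and at least 30.5-fold lower in Otx2 KI, where it was not well above background. With normexp these 6 probes had differences of -3.76 to -2.49 on both arrays, still past 2-fold.

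Probes detected on 1 array of a comparison gave bounds in place of folds. Between Otx2 KI and wild-type 63 of 224 such interval probes were at least 2-fold higher and 84 of 943 at least 2-fold lower, beside 28.5% and 11.1% of all such probes and 28.9% and 12.6% of the others. In Crx KO against wild-type the counts were 113 of 684 higher and 93 of 478 lower, beside 19.4% and 22.9% of all and 21.7% and 25.1% of the others. Between the mutant arrays they were 36 of 152 higher and 72 of 1078 lower, beside 28.4% and 8.14% of all and 31.5% and 9.29% of the others. Each bound is the signal on the bright array over the higher of the dim probe's own signal and the lowest scaled signal called well above background on the dim array, which was 10.2 on the wild-type array, 12.4 on the Otx2 KI array and 9.94 on that of Crx KO.

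An interval named for its bounds was detected by all of its probes in wild-type and by none on the mutant arrays. Intervals of this kind were not counted over the array. The 3 probes of the 0.619-kb interval chr7:80766878-80767496, orientation R, read 59.4, 98.1 and 118 in wild-type, against 6.31, 3.61 and 3.46 in Otx2 KI and 7.27, 7.47 and 9.91 in Crx KO. The brightest was at least 9.47-fold lower in Otx2 KI and at least 11.8-fold lower in Crx KO. In chr8:71526892-71527500, orientation R, 1 of 3 probes read 120, 2.68 and 2.16, at least 9.71-fold and at least 12.1-fold lower, while the only other detected probe read 18.6, 19.9 and 15.5. In chr5:149775338-149781472, orientation R, 1 of 3 probes read 109 in wild-type, against 9.05 in Otx2 KI and 2.18 in Crx KO, at least 10.9-fold lower in Crx KO.

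On the higher side, chr3:18521534-18522194, orientation R, had 3 probes at 11.4, 11.4 and 18.9 in wild-type, against 29.5, 66.0 and 61.9 in Otx2 KI and 53.3, 104 and 87.4 in Crx KO. The first pair was not well above background in wild-type, and 1 of them was at least 5.79-fold higher in Otx2 KI and at least 9.12-fold higher in Crx KO. In chr7:140081171-140123058, orientation R, 1 of 3 probes read 9.50, 66.6 and 69.0, at least 6.56-fold and at least 6.79-fold higher, while another read 4147, 5095 and 4233. The single probe of chr18:13107755-13107844, orientation F, read 65.5 in Otx2 KI and was not well above background on the other arrays (2.3 in wild-type and 2.13 in Crx KO), so that it was at least 6.45-fold higher than in wild-type and at least 6.59-fold higher than in Crx KO. With normexp this probe differed from wild-type by 0.85 on the log2 scale, short of 2-fold. The probe at 66.6 in chr7:140081171-140123058 had 0.74 in Otx2 KI and 0.76 in Crx KO, and the probe at 66.0 in chr3:18521534-18522194 had 0.78 in Otx2 KI and 1.09 in Crx KO. None of these 3 probes stayed past 2-fold in Otx2 KI against wild-type.

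A few intervals set the Crx KO array apart from both others. The largest was chr3:96074625-96086375, orientation F, whose 5 probes read 6.37, 11.6, 20.3, 23.7 and 31.5 in wild-type, against 6.03, 6.92, 29.6, 16.5 and 28.9 in Otx2 KI and 145, 480, 182, 469 and 169 in Crx KO. Every probe was above 140 in Crx KO and below 32 on the other arrays. Over the 4 probes measured against wild-type the mean difference was 3.82 on the log2 scale (14.1-fold, with single probes from 2.43 to 5.37), and over the 3 measured in Otx2 KI against Crx KO it was -3.33 (10.1-fold lower in Otx2 KI). For the 3 probes detected on all arrays, Otx2 KI against wild-type gave -0.03. With normexp those 3 probes had a mean of 1.87 in Crx KO against wild-type and -1.84 in Otx2 KI against Crx KO.

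The next was chr11:87872568-87880978, orientation R. Its 4 probes read 30.3, 47.1, 70.8 and 122 in wild-type, against 39.7, 41.8, 80.9 and 110 in Otx2 KI and 137, 155, 284 and 281 in Crx KO, a mean of 1.78 in Crx KO against wild-type (3.42-fold), 0.07 in Otx2 KI against wild-type and -1.71 between the mutants. The 5 probes of chr1:58443698-58449898, orientation R, read 32.1 to 92.1 in wild-type, against 26 to 91.6 in Otx2 KI and 78.6 to 393 in Crx KO. They differed by 0.76 to 2.09 in Crx KO against wild-type and by -2.15 to -1.08 in Otx2 KI against Crx KO. With normexp the means in Otx2 KI against Crx KO were -1.06 on chromosome 11 and -0.99 on chromosome 1. The interval chr1:58440355-58449627 of the same orientation contains the chromosome 1 interval, and its 3 probes had a mean of 0.46 in Crx KO against wild-type, with 1 probe at 1.05.

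Lower in Crx KO than in both other arrays was chr17:22335458-22466521, orientation R. The 3 probes read 528, 803 and 866 in wild-type, against 564, 758 and 925 in Otx2 KI and 236, 367 and 366 in Crx KO. Wild-type and Otx2 KI differed by a mean of 0.04, while Crx KO was 2.26-fold lower than wild-type (-1.18, normexp -1.01) and Otx2 KI 2.32-fold higher than Crx KO. Within this stretch, chr17:22420025-22457650, orientation R, had 4 measured probes with -1.30 to -0.41 in Crx KO against wild-type and -0.09 to 0.06 in Otx2 KI. The interval chr17:22013350-22095775, orientation R, had 3 with -1.49 to -0.29 and -0.14 to -0.02. On chromosome 3 the 3 probes of chr3:60292527-60292880, orientation R, read 347, 540 and 845 in wild-type, against 450, 635 and 890 in Otx2 KI and 179, 279 and 454 in Crx KO, a mean of -0.93 in Crx KO, just short of 2-fold, and of 1.16 in Otx2 KI against Crx KO, which was 0.97 with normexp and so short of 2-fold.

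Single probes were also highest in Crx KO alone. In chr18:82862340-82875566, orientation F, all 3 probes were above the other arrays, at 42.1, 141 and 210 in Crx KO against 2.26 to 32.1 in wild-type and 2.75 to 32.7 in Otx2 KI. Only 1 of them was well above background on all arrays, with a difference of 2.14 in Crx KO against wild-type and -2.11 in Otx2 KI against Crx KO. Another was at least 20.7-fold higher than in wild-type. In chr3:36280098-36347798, orientation F, 1 of 6 probes read 2.54, 15.2 and 233, at least 22.9-fold higher in Crx KO than in wild-type, while the only probe measured on all arrays read 544, 666 and 724. In chr9:30805020-30810645, orientation F, 1 of 5 probes read 2.62, 3.19 and 146 and the other 4 were not well above background on any array. The Otx2 KI array alone was low for 1 of 2 probes of chr8:80581177-80621652, orientation F, which read 179, 31.1 and 130 (-2.52 against wild-type and -2.06 against Crx KO). With normexp these were -1.24 and -0.94, the latter short of 2-fold.

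Some dim intervals were lower by unlike amounts on the mutant arrays. In chr13:67932042-67944229, orientation F, the 3 probes read 49.6, 64.0 and 71.1 in wild-type, against 35.4, 40.6 and 45.8 in Otx2 KI and 18.4, 17.1 and 25.9 in Crx KO. Each probe lay in the order wild-type, Otx2 KI, Crx KO, with means of -0.59 and -1.60. The mutant arrays took the opposite order in chr12:109994730-109995062, orientation R, with wild-type again the highest. Its 3 probes read 82.2, 93.6 and 101 in wild-type, against 28.2, 30.9 and 36.7 in Otx2 KI and 38.5, 52.9 and 55.1 in Crx KO, with means of -1.53 and -0.93. In chr2:113880070-113887230, orientation F, the 2 probes detected on all arrays read 109 and 241 in wild-type, against 41.9 and 99.4 in Otx2 KI and 55.8 and 121 in Crx KO. The difference between the mutant arrays was short of 2-fold in the latter intervals (-0.60 and -0.35) and 2.01-fold on chromosome 13. With normexp all of these means against wild-type lay between -0.82 and -0.20, and the chromosome 13 difference between the mutant arrays was 0.34, all short of 2-fold.

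The interval probes with the highest own signal differed little between arrays. In chr19:5801802-5802597, orientation R, the 3 probes read 50476, 83978 and 178650 in wild-type, against 54347, 88815 and 190445 in Otx2 KI and 59715, 99996 and 215271 in Crx KO, a mean difference of 0.09 and 0.25. The 3 probes of chr17:17481706-17482457, orientation R, read 50918, 81729 and 124962 in wild-type and gave means of -0.14 and -0.15. In some other intervals that hold 1 of the 10 brightest probes, high signal was limited to that probe. In chr6:83368261-83407280, orientation F, 1 of 5 probes read 110290, 103775 and 94019, and the other 4 read 19.5 to 638 in wild-type; all 5 were within 1.5-fold of wild-type on both mutant arrays. The interval chr6:83391748-83398316 of the same orientation lies inside it, yet its 3 probes were lower in Otx2 KI by a mean of -1.33 on the log2 scale. In chr14:78924115-78938125, orientation F, 1 of 7 read 98359, 94117 and 90705, and the other 6 read 3.27 to 66.5 in wild-type. Of these 10 probes, none differed from wild-type by 2-fold on either mutant array.

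A list of named long noncoding RNAs was read for comparison, and it includes Crxos, a homeobox gene that RefSeq lists as protein-coding. Of 22 listed, 15 had a probe and 14 were measured in every comparison. In Otx2 KI against wild-type 1 of 14 passed 2-fold downward and 0 upward (median log2 difference 0.03), and in Crx KO 2 passed downward and 1 upward (median 0.03). Vax2os, transcribed opposite the eye-patterning gene Vax2, read 2455 in wild-type, against 541 in Otx2 KI and 649 in Crx KO. Neat1, the scaffold RNA of nuclear paraspeckles, read 331, 511 and 720, a difference of 1.12 in Crx KO. Malat1, an abundant nuclear RNA, read 1050, 998 and 1202, and Meg3, from an imprinted locus, read 11036, 11339 and 13507. Of the 14, Vax2os, Neat1 and Crxos (2965, 3947 and 749) passed 2-fold against wild-type on a mutant array.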

How the data were processed

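Retina RNA of 3 genotypes was read on 1-colour Agilent arrays, 1 array each, on 1 slide in 1 scan. Per the file headers, the deposited scanner files come from Agilent Feature Extraction 12.0.3.1 and a design of build mm9 and give each spot a Cy3 intensity, and the processed signal had its background subtracted by that software. The authors' deposited value table, a signal per probe, equals the processed intensity times 2.49 (wild-type), 2.54 (Otx2 KI) or 2.61 (Crx KO). Its column medians are 129.8, 125.7 and 135.8, and no source used here states how the factors were chosen.

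Control and outlier spots were left out (1, 2 and 0 interval probes). The log2 processed signal was reduced by each array's 75th percentile over non-control spots (574, 564 and 570), and a probe was measured in a comparison where it was well above background on both arrays. Calls are by size, at 2-fold or more. Python 3.11.15, numpy 2.4.6 and pandas 2.3.3 were used, with limma 3.58.1 in R 4.3.3 for normexp. The calling step was also run on simulated data. Its planted shifts were well past 2-fold, lay in brighter interval probes only, and had only scanner error added. That run checks the arithmetic of the calls and not their accuracy near 2-fold or in dim probes.

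Members, lists and alternatives were chosen with earlier results of these data known. Named were, per comparison, the 10 largest increases and decreases among probes above the median signal, the 3 largest bounds per direction and up to 10 intervals per direction whose measured probes all passed, plus the 10 brightest probes; the text prints some of these. Intervals not chosen by this rule are named for lying in or around one that was, after their values were seen. Gene names come from RefSeq of GRCm38.p6 by accession, without its coordinates.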

Additional observations from a re-analysis of the deposited data

How the results depend on the processing

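With 1 array per genotype no replicate could be left out. No paired analysis was possible because each group holds 1 array. The authors' value table multiplies all probes of an array by the same factor, and very few interval probes were outlier spots. Using that table or keeping those spots could therefore hardly change the counts, and neither is a check of them. Both settings kept the counts of interval probes past 2-fold within 1.5 times of the reported ones. Quantile normalization, centring on the interval probes, requiring detection on all 3 arrays, and leaving out intervals over 100 kb (chosen after seeing the data) did so too. The reported counts were 228, 403 and 127 for Otx2 KI against wild-type, Crx KO against wild-type and Otx2 KI against Crx KO. In that order the counts were 53, 85 and 22 with normexp (offset 50), 1547, 1988 and 1408 with no filter on dim probes, 29, 54 and 12 over probes brighter than the median detected probe, 720, 1225 and 539 at 1.5-fold, and 45, 46 and 15 at 4-fold. By the mean of an interval's probes, 45, 71 and 13 intervals passed in place of 24, 36 and 4. The share detected on all 3 arrays was 63.8% by the looser call of a positive and significant signal and 45.7% above the 99th percentile of negative controls, in place of 44.3%. Normexp was run on the median spot signals, a choice made after seeing the files, because they hold no mean signal for the planned run. Quantile normalization took no named difference below 2-fold. The value table took none either, which is no check, since it holds the same factor for all probes of an array. Normexp took 37 of 69, 35 of 72 and 13 of 33 named differences below 2-fold and reversed none. The kept signs are a weak check, because the same spots are read and an offset shrinks such differences without turning them. The normexp run differs from the reported values in signal column, background model and offset together, and which of these lowers the counts was not tested. Of the interval probes, 44.6% were well above background on no array and could not be compared.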
